A study of Rattus norvegicus with 8 samples.

Results

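The partly methylated open-sea tiles of the rat bladder are 200-bp stretches in which few CpGs were read, away from tiles read as CpG-dense. Their mean methylation in the normal bladder lay between 20% and 80%. The genome was divided into tiles of 200 bp, and a tile on chromosomes 1 to 20 was taken where every sample had at least 3 CpGs in it and the mean over the samples was under 10 CpGs. It was left out where a CpG-dense tile, one of at least 10 CpGs in every sample, started within 2000 bp. A CpG-rich stretch with fewer CpGs read in some sample was not a reason to leave a tile out. One of the tiles described here lay 113 bp from a region on the study's list of hypermethylated genes. The methylation level was the number of C calls divided by all calls on the CpGs of the tile. Of 185145 such open-sea tiles, 72718 (39.3%) had a mean control level from 20% to 80% and form the set described here, out of 258144 tiles measured in all samples. The others were 13198 open-sea tiles under 20% and 99229 over 80%.

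The samples were 5 bladder tumors of F344/DuCrj rats given 200 ppm dimethylarsinic acid (DMAV), an organic metabolite of arsenic, in drinking water for 104 weeks from 10 weeks of age, and 3 control bladders of rats given water with 0 ppm for the same time. The tumors are called UCs (urothelial carcinomas), the name the study uses, and the study states that the rats were male. It did no histology on these tumors and took them as UCs by their size. Rats that became moribund were also killed, and the study does not say whether any of these samples came from such a rat. The control samples are labelled as urothelium, whereas the study's methods speak of bladder tissue, and neither source says that the 5 UCs came from 5 animals. P-values thus measure only the spread between these samples. DNA methylation was measured by reduced representation bisulfite sequencing (RRBS), in which DNA is cut with TaqαI and MspI and treated with bisulfite, which turns unmethylated cytosines into bases read as T and leaves methylated ones as C.

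In mammals, most CpGs outside CpG islands carry methylation, and the open sea is the CpG-poor remainder of the genome away from those islands. The mark is copied to the new strand at each cell division by maintenance methyltransferase, and a CpG on a single DNA molecule is either methylated or not. A partial level in bulk DNA is therefore an average over cells, alleles and neighbouring CpGs. A change in the cell types present and a change of methylation within cells cannot be told apart in such samples.

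The samples held 2526077 to 2821347 CpGs and 51434938 to 73836223 calls each, with a median of 14 to 18 reads per CpG. Among the partly methylated tiles, the median of the calls in the sample with the fewest was 49, and the tiles had 4.18 CpGs on average. The UCs did not stand equally far from each other. Over these tiles the root mean square difference in level was 7.84 points (percentage points) between UC 1 and UC 2. It was 8.02 points between UC 4 and UC 5. Both were smaller than the 10.2 to 10.5 points between pairs of controls. With 50 or more calls in every sample they were 6.04 and 6.09 points, against 7.45 to 7.92 points between controls. In the CpGs of 10 or more reads, the variance from counting was 67.4 to 82.2 in the controls. It was 36.3 to 50.8 in UC 1, UC 2, UC 4 and UC 5. The tiles were chosen at intermediate levels of the controls, and the part of counting error in the smaller UC distances was not tested. The pairs that joined UC 1 or UC 2 with UC 4 or UC 5 were 17.3 to 17.8 points apart. UC 3 was 17.8 to 18.9 points from the controls, and the other UCs were 26.9 to 29.2 points from them. The UCs thus formed 2 close pairs and a single tumor nearer to the controls. The total numbers of called tiles are also given with the pairs merged and with UC 3 left out. The called shares by starting level and distance, the counts of tiles without overlap and the SDs take each UC as a sample of its own.

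The first question was whether the tiles kept an intermediate level in the UCs. In the controls the levels of the tiles formed a single hump with medians of 64.4%, 64.8% and 63.9%, a shape that the selection sets in part. In the UCs the middle of the distribution was thinner and both ends were filled. The medians of UC 1 to UC 5 were 73.7%, 72.9%, 65.5%, 67.4% and 67.1%. The mean over the tiles moved little, from 59.8% to 60.7% in the controls to 60.02% to 64.8% in the UCs, whereas the SD over the tiles was 17.1 to 17.6 points in the controls and 21.6 to 29.2 points in the UCs. The UC with the lowest SD, 21.6 points, was UC 3, and the other UCs had 28.2 to 29.2 points. The shares of tiles below 5% were 4.51%, 5.56%, 0.524%, 5.25% and 6.55% for UC 1 to UC 5, against at most 0.0743% in a control. The shares above 95% were 8.72%, 8.55%, 0.866%, 5.03% and 5.60%, against at most 0.0633% in a control.

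**Figure D1:**
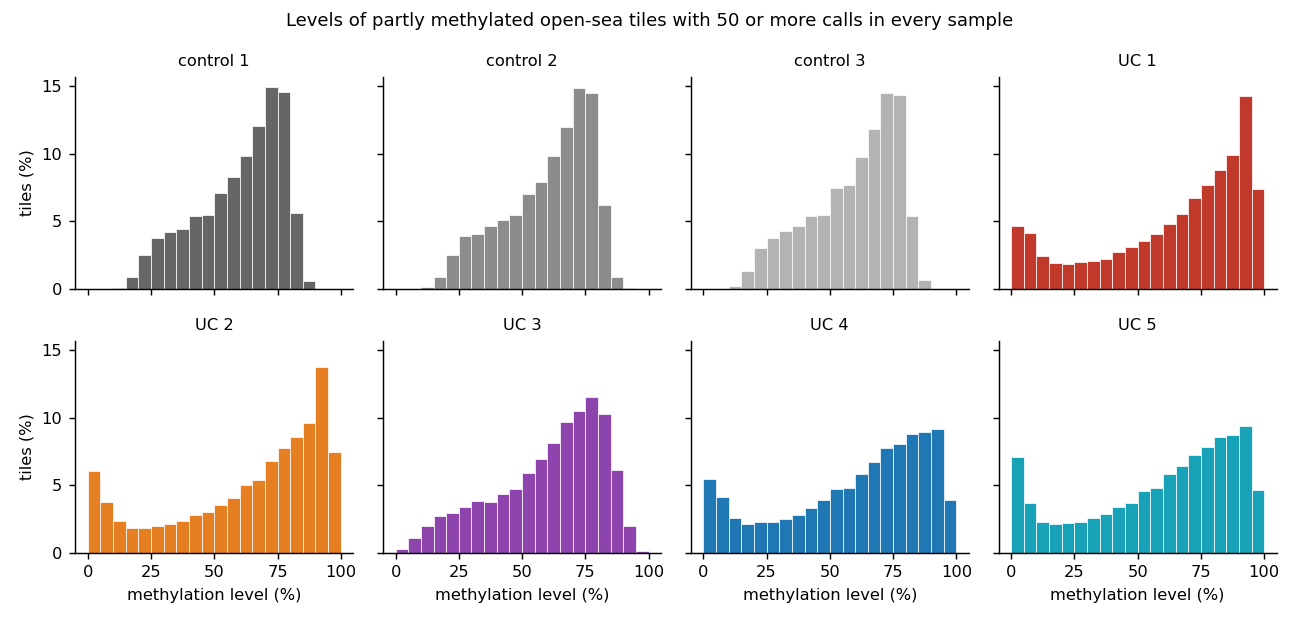
Histograms of the methylation level (x axis, in percent, bins of 5 points) of the partly methylated open-sea tiles with at least 50 calls in every sample, as the percent of tiles (y axis) in each of the 3 controls and 5 UCs. The controls show 1 hump bounded by the selection, UC 1, UC 2, UC 4 and UC 5 have further tiles piled up near 0% and above 90%, and UC 3 lies between.

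Because the controls chose the tiles, their own levels cannot serve as a fair comparison. The selection was therefore repeated with the mean of 2 controls, and the tiles were then read in the control left out, which gave 72543 to 73124 tiles. The left-out control had 14.1%, 15.5% and 14.7% of the tiles outside 20% to 80%, in turn for controls 1, 2 and 3. In the same tiles UC 1 had 52.7% to 53.0% outside that range, UC 2 52.4% to 52.8%, UC 3 25.5% to 25.9%, UC 4 44.2% to 44.6% and UC 5 45.2% to 45.6%. Every UC was above every left-out control in this share. With only the tiles of at least 50 calls in every sample, the left-out controls had 10.7%, 12.1% and 11.2% outside, and the mean of the UCs was 44.5% beside 44.2% in all tiles.

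Both ends took part. Below 20% lay 1.81%, 1.81% and 2.60% of the tiles in the left-out control, and above 80% lay 12.3%, 13.7% and 12.1%. In UC 1, chosen without control 1, the values were 12.1% and 40.9%, and in UC 5 they were 14.0% and 31.6%. UC 3 had 5.66% below 20% and 20.2% above 80% in these tiles. Large moves were rare between controls: a level more than 30 points above the mean of the choosing controls was found in 0.259%, 0.298% and 0.248% of the tiles of the left-out control, and one more than 30 points below it in 0.210%, 0.196% and 0.40%. In the tiles chosen without control 1, such gains made up 15.5%, 15.1%, 3.71%, 11.8% and 12.0% for UC 1 to UC 5. Such losses made up 12.1%, 12.8%, 5.95%, 13.8% and 14.6%. Large gains were more frequent than large losses in UC 1 and UC 2 and less frequent in UC 3, UC 4 and UC 5. The scale bounds this comparison unequally. No tile starting above 70% can gain over 30 points, and none starting below 30% can lose as much. By the mean of all controls, 37.2% of the partly methylated tiles started at 70% to 80% and 6.70% at 20% to 30%.

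**Figure D2:**
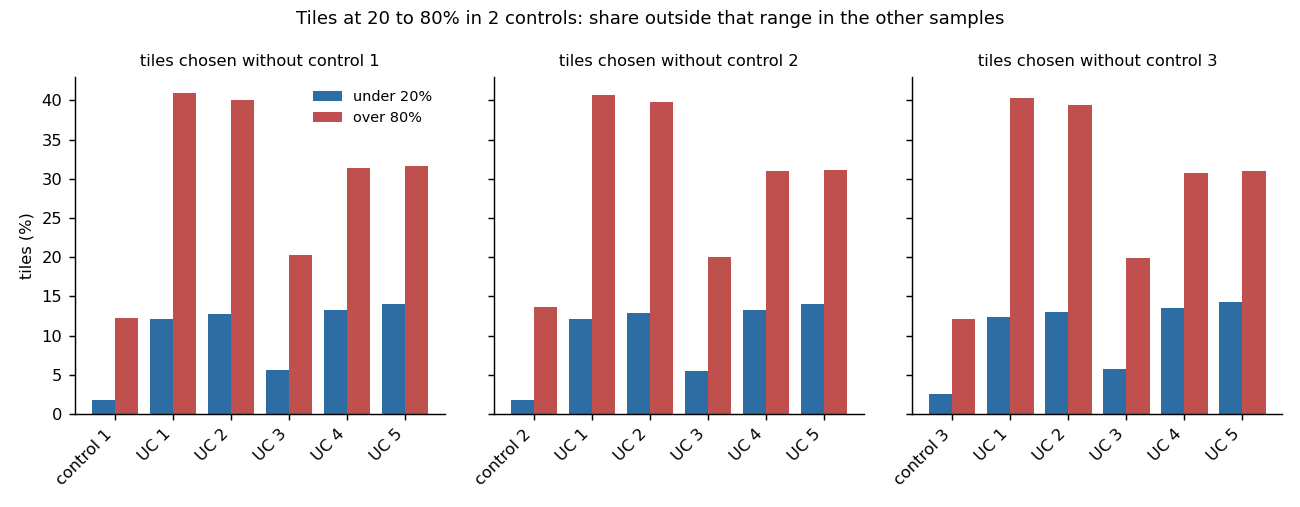
Percent of tiles (y axis, from 0) under 20% (blue) and over 80% (red) in the control left out of the selection and in UC 1 to UC 5, in a panel for each control left out, with no error bars because each bar is 1 sample. The left-out control has 1.81% to 2.60% under 20% and 12.1% to 13.7% over 80%, and every UC stands above it at both ends.

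The same tiles were tested for a difference between the groups by fitting their calls with a quasi-binomial model, whose dispersion was moderated by limma, and a tile was called where the Benjamini-Hochberg adjusted p over all 258144 tiles was under 0.05 and the group means differed by over 10 points. Of the 72718 partly methylated tiles, 15814 (21.7%) were called higher in the UCs, where 9.29% of all tiles were called higher, and 10828 (14.9%) were called lower, where 7.15% of all tiles were called lower. The remaining 46076 (63.4%) were not called. Gains made up 59.4% of the calls. Since the control levels that chose the tiles also enter this contrast, nothing is read from the excess over all tiles. Every UC lay above every control in 18269 of the tiles (25.1%, beside 15.4% of all tiles), and every UC lay below every control in 12491 (17.2%, beside 10% of all tiles).

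The number of calls depended on single samples. Without UC 3 there were 20889 higher and 13295 lower. Without control 3 there were 7276 and 6093, without control 2 8247 and 6293, and without control 1 8511 and 6519. With UC 1 and UC 2 merged into 1 sample and UC 4 and UC 5 into another, 7469 tiles were called higher and 6224 lower. Higher calls outnumbered lower calls in each of these fits.

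Over all starting levels together, of which 59.5% of the tiles lay at 60% to 80%, the median difference was 26.0 points in the tiles called higher and −36.1 points in those called lower. Over all 72718 tiles the mean difference was 1.77 points, the median 4.56 points, and the middle quartiles ran from −10.8 to 16.5 points. For the other open-sea tiles the room to move differs by construction. Those under 20% had 1736 tiles called higher (13.2%) and 487 lower (3.69%), with a mean difference of 5.65 points and a median of 0.34. Those over 80% had 1818 called higher (1.83%) and 5033 lower (5.07%), with a mean difference of −1.61 points. The 1365 CpG-dense tiles chosen by the same limits of 20% and 80% had 463 called higher (33.9%) and 207 lower (15.2%), with a mean difference of 6.42 points.

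The balance of gains and losses shifted with the starting level, the mean of the 3 controls. Among the 4872 tiles starting at 20% to 30%, 33.1% were called higher and 16.4% lower. The higher share was 35.2% at 30% to 40%, 30.5% at 40% to 50%, 26.5% at 50% to 60% and 19.5% at 60% to 70%, and it was 13.6% in the 27056 tiles at 70% to 80%. The lower share stayed between 12.6% and 17.2% over the 6 bands. The ratio of higher to lower calls was 2.02 in the lowest band and 1.08 in the highest. The lower calls thus made up a similar share of tiles at every starting level, and it was the higher calls that thinned out.

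The sizes of the called changes also differed by starting level. In tiles called higher the median gain was largest in the lowest band and fell to 29.2 points at 50% to 60%, 22.7 points at 60% to 70% and 16.0 points at 70% to 80%. In tiles called lower the median difference was −19.7 points at 20% to 30%, −27.4 points at 30% to 40%, −35.0 points at 40% to 50%, −42.0 points at 50% to 60%, −45.6 points at 60% to 70% and −42.4 points at 70% to 80%. In the same bands below 50% the median gains were 42.3, 40.3 and 35.3 points, all larger in size than the median losses, and in the bands above 50% the median losses were the larger. Starting level and difference share the control values, so these are descriptions of a range that the scale itself bounds.

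The mean difference over all tiles of a band was 12.4 ± 3.72 points (SD over the 5 UCs) at 20% to 40% (10987 tiles), 4.60 ± 2.47 points at 40% to 60% (18461 tiles) and −2.15 ± 2.19 points at 60% to 80% (43270 tiles). In the lowest of these bands UC 1 to UC 5 had mean differences of 16.3, 15.3, 6.86, 12.1 and 11.5 points, all gains. In the highest it was 0.29, −0.42, −1.81, −4.21 and −4.59 points in the same order, so that UC 1 and UC 2 were near 0 and UC 4 and UC 5 below it. In this band the mean and the median had opposite signs: the median difference was 2.93 points, a small gain of the middle tile beside a minority of large losses. The order of the bands was the same in every UC.

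A tile that reads low in the controls through counting error tends to read higher elsewhere, so the starting level was also taken from 1 control and the difference from the mean of the other 2. At 20% to 40% the mean difference was then 10.5, 11.6 and 10.6 points with controls 1, 2 and 3 as the starting sample, at 40% to 60% it was 3.33, 4.34 and 3.39 points, and at 60% to 80% it was −2.27, −1.99 and −2.48 points. The other controls themselves differed from the starting control by 1.31, 1.40 and 3.42 points in the lowest band and by 1.04, 0.629 and 1.39 points in the highest. The direction in each band was unchanged by this separation in all 3 turns.

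**Figure D3:**
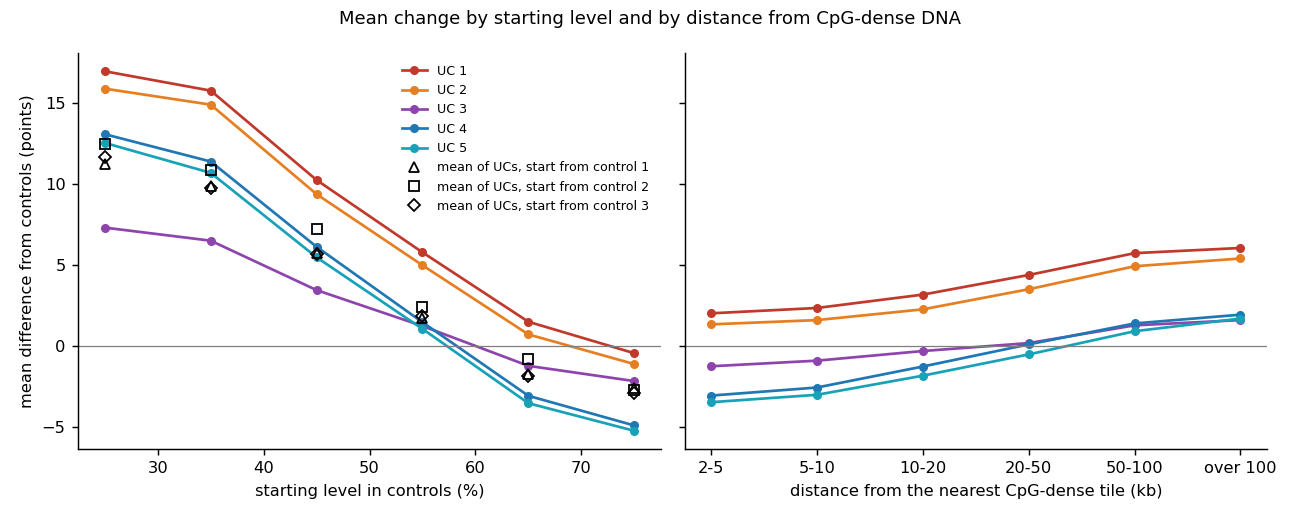
Mean difference from the controls in percentage points (y axis), by starting level in bands of 10 points plotted at their centres (left) and by distance from the nearest CpG-dense tile (right), with a line for each UC and, as open symbols, the mean over the UCs when 1 control sets the starting level. The mean difference falls with the starting level in every UC and rises with the distance in every UC.

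The position of a tile relative to CpG-dense DNA went with the balance too. In the 5211 tiles whose nearest CpG-dense tile started 2 to 5 kb away, 19.8% were called higher and 18.8% lower, with a mean difference of −0.88 points. In the 20566 tiles over 100 kb away, 21.3% were called higher and 11.2% lower, with a mean difference of 3.34 points. The mean control levels were close, 59.1% in the nearest and 61.4% in the farthest tiles, and the share of higher calls stayed within 19.8% to 23.3% over the 6 distance classes. Lower calls were therefore the ones that became fewer with distance. Within the 20% to 40% starting band the mean difference was 8.07 points in the nearest and 16.7 points in the farthest class, and within the 60% to 80% band it was −4.0 and −1.05 points. In UC 1 the mean difference was 2.02 points in the nearest class and 6.06 in the farthest, and in UC 5 it was −3.46 and 1.70 points. The number of CpGs in a tile also differed in its values: tiles with a mean of 3 to under 4 CpGs had 18.5% higher and 14.4% lower calls, and tiles with 8 to under 10 CpGs had 31.3% and 15.9%. The median calls in the sample with the fewest were 36 in the former and 137 in the latter, and the part of depth in this rise was not tested. Over the distance classes the same median ran only from 53 in the nearest to 45 in the farthest tiles.

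The next question was whether the UCs moved the same tiles. In 6906 tiles (9.50%) all 5 UCs were above 80%, in 2779 (3.82%) all 5 were below 20%, and in 21239 (29.2%) all 5 stayed within 20% to 80%. Only 398 tiles (0.547%) had a UC above 80% and another below 20%. The mean of UC 1 and UC 2 was above 80% in 28965 tiles, and that of UC 4 and UC 5 in 22308. The 18001 tiles in which both means were above 80% made up 62.1% of the first set and 80.7% of the second. For means below 20%, the sets held 9170 and 9993 tiles and shared 7368, which is 80.3% and 73.7% of them. The mean of UC 1 and UC 2 was above 80% and that of UC 4 and UC 5 below 20% in 59 tiles, and the reverse held in 38. All the tiles start from the same control range, so some sharing follows from the starting level alone, and no test was made of it.

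UC 3 stood between these levels and the controls. Where the means of both pairs were above 80%, the median level of UC 3 was 78.9%, and where both were below 20% it was 23.1%. The pairs also had tiles of their own: the mean of UC 1 and UC 2 and that of UC 4 and UC 5 differed by over 50 points in 875 tiles (1.20%), with UC 1 and UC 2 higher in 572 and UC 4 and UC 5 higher in 303.

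Neighbouring tiles moved together over short distances. Among 7004 pairs of adjoining tiles, Pearson's r across pairs of the difference between UCs and controls was 0.79, among 2280 pairs 400 bp apart it was 0.60, and among 4534 pairs 600 to 1000 bp apart 0.37. It was 0.14 at 2200 to 5000 bp and 0.03 at 50200 to 200000 bp. These are correlations across pairs that share samples, chromosomes and, when adjoining, reads. The difference between 1 control and the other controls gave r of 0.05 to 0.10 at 200 bp and under 0.01 at 600 to 1000 bp, so the likeness of neighbours was seen in the difference of the UCs and little in that of a control. The control mean, which enters the difference of the UCs, had itself r of 0.50 at 200 bp and 0.14 at 600 to 1000 bp. The part of counting error in the low r of a control was not tested. Where both of an adjoining pair were called, 1880 of 1906 pairs (98.6%) were called in the same direction, beside 735 of 1079 (68.1%) at 1200 to 2000 bp and 48118 of 89023 (54.1%) at 50200 to 200000 bp.

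**Figure D4:**
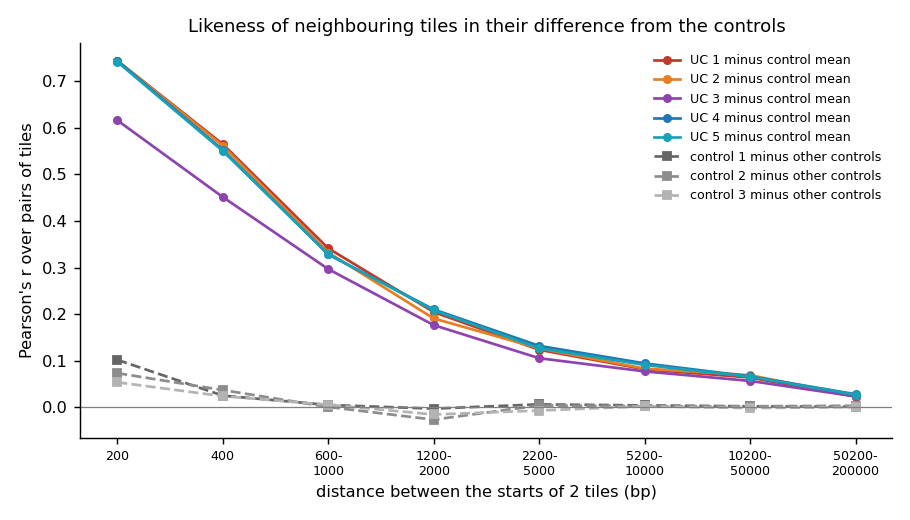
Pearson's r over pairs of partly methylated open-sea tiles (y axis) by the distance between their starts in bp (x axis, classes), for each UC minus the control mean (solid lines) and each control minus the other controls (dashed lines). At 200 bp the UCs have r from 0.62 to 0.74 and the controls from 0.05 to 0.10, and by 50200 to 200000 bp all are near 0.

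A partial level of a tile can come from CpGs that are each partly methylated or from a mixture of methylated and unmethylated CpGs. In a reading added after the data were seen, the CpGs were taken from the tiles chosen by 2 controls, in the control left out and in the UCs, over the 33585 to 33790 tiles with at least 3 CpGs of 10 or more reads in all samples. In the left-out control 71.4%, 70.3% and 71.0% of these CpGs were themselves between 20% and 80%, in turn for controls 1, 2 and 3. In the tiles chosen without control 1 the shares for UC 1 to UC 5 were 28.8%, 27.6%, 58.2%, 36.0% and 34.1%. The CpGs above 80% made up 22.4%, 23.3% and 21.8% in the left-out controls, and 51.6%, 51.7%, 30.5%, 43.1% and 43.9% in the UCs with control 1 left out. Every UC had fewer CpGs of intermediate level than the left-out controls, and UC 3 was the nearest to them. How far this follows from the levels of the tiles themselves was not tested.

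The tiles that stayed between 20% and 80% in a sample were also looked at alone. With control 1 left out, 23.9% of the CpGs of such tiles lay outside 20% to 80% in control 1, and 51.3%, 53.2%, 30.5%, 45.8% and 47.6% in UC 1 to UC 5. Controls 2 and 3, left out in turn, had 24.7% and 24.2%. The median SD of the levels of the CpGs within such a tile was 13.7, 14.1 and 13.8 points in the left-out controls, and the UCs had 27.2, 27.9, 16.95, 25.2 and 26.3 points with control 1 left out. Within tiles of intermediate level UC 1, UC 2, UC 4 and UC 5 thus had the wider spread. UC 3 lay closer to the controls. These tiles differed between samples, with 29859 in control 1 and 15550, 15530, 25196, 18383 and 17891 in UC 1 to UC 5. Over all 33585 tiles chosen without control 1, the median SD differed less. It was 13.1 points in control 1 and 14.7, 15.2, 14.1, 16.5 and 16.95 points in UC 1 to UC 5. Among all the tiles chosen without a control, a CpG under 20% and another over 80% were found together in 5.89%, 5.83% and 5.85% in the left-out controls and, with control 1 left out, in 14.8%, 15.7%, 8.09%, 13.8% and 14.99% for UC 1 to UC 5.

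The largest gains show what such a tile looked like. Positions are those of rn6, and the sequence and gene annotation of rn6 were not used here, so that the tiles are given by position alone. The tile at chr7:23559401-23559600 had levels of 22.0%, 21.3% and 18.9% in the controls and 96.2%, 93.9%, 68.2%, 95.5% and 99.2% in UC 1 to UC 5. Its 3 CpGs span 23559476 to 23559492 and rested on 66 to 180 calls per sample. The mean rose from 20.7 ± 1.60% (SD, n = 3) to 90.6 ± 12.7% (SD, n = 5), with an adjusted p of 0.00406 in the model moderated by limma. No UC overlapped a control, and UC 3 was the lowest of the UCs. The tile at chr2:211681201-211681400 went from 26.2%, 14.6% and 27.8% to 96.8%, 95.9%, 64.4%, 96.3% and 97.2% (limma-moderated adjusted p = 0.0065), with the same order of UC 3 below the others.

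The next gains were alike. At chr18:32387601-32387800 the controls had 20%, 26.2% and 39.4% and the UCs 83.3% to 100%. At chr4:168184601-168184800 the controls had 22.9% to 31.7% and the UCs 75% to 100%. At chr19:19467401-19467600 the controls had 14.8% to 27.8% and the UCs 64.0% to 93.2%. In each of them UC 3 was the lowest UC and was still above every control. In the largest gains from higher starts UC 3 was closer to the others: at chr1:23184001-23184200 the controls had 41.6%, 46.2% and 39.5% and the UCs 96.7%, 94.6%, 92.1%, 95.2% and 95%, and at chr5:114403601-114403800 the controls had 59.3% to 62.0% and the UCs 89.1% to 98.3%. Both tiles were picked by a mean that includes UC 3, and the scale ends at 100%, so they do not stand for all gains from such starts.

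The largest losses began just under the upper limit of the selection and ended near 0. The ranking sets this in part, since a loss cannot exceed its starting level. The tile at chr7:126500601-126500800 had 74.0%, 82.7% and 81.8% in the controls and 2.06%, 1.53%, 14.8%, 1.09% and 3.17% in UC 1 to UC 5, on 5 CpGs and 92 to 131 calls per sample. Its mean fell from 79.5 ± 4.78% (SD, n = 3) to 4.53 ± 5.80% (SD, n = 5), with an adjusted p of 0.00118 in the model moderated by limma. Each of its CpGs was at 60% to 90% in the controls and at 0% to 23.5% in the UCs, so the loss was shared by its CpGs. The tile at chr1:13641601-13641800 went from 72.3%, 83.6% and 79.8% to 5%, 0.658%, 15.8%, 1.14% and 1.51%. At chr12:49491401-49491600 the controls had 72.3% to 81.5% and the UCs 0% to 10.8%, and at chr12:23580201-23580400 the controls had 77.1% to 83.4% and the UCs 0.667% to 19.4%. At chr8:84781401-84781600 the controls had 77.5% to 78.5% and the UCs 1.20% to 19.6%. UC 3 held the highest level among the UCs in all of these losses.

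Losses from lower starts also reached the floor. At chr1:79908001-79908200 the controls had 39.7%, 38.3% and 40.6% and the UCs 0%, 0%, 5%, 0% and 0.763%. At chr1:263525201-263525400 the controls spread from 46.1% to 70.3% and the UCs from 0% to 5.88%. The groups did not overlap in either tile. The 95% Wilson intervals of single levels in the tiles named above reached at most 13.8 points from the level on the wider side, and they cover counting error only.

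**Figure D5:**
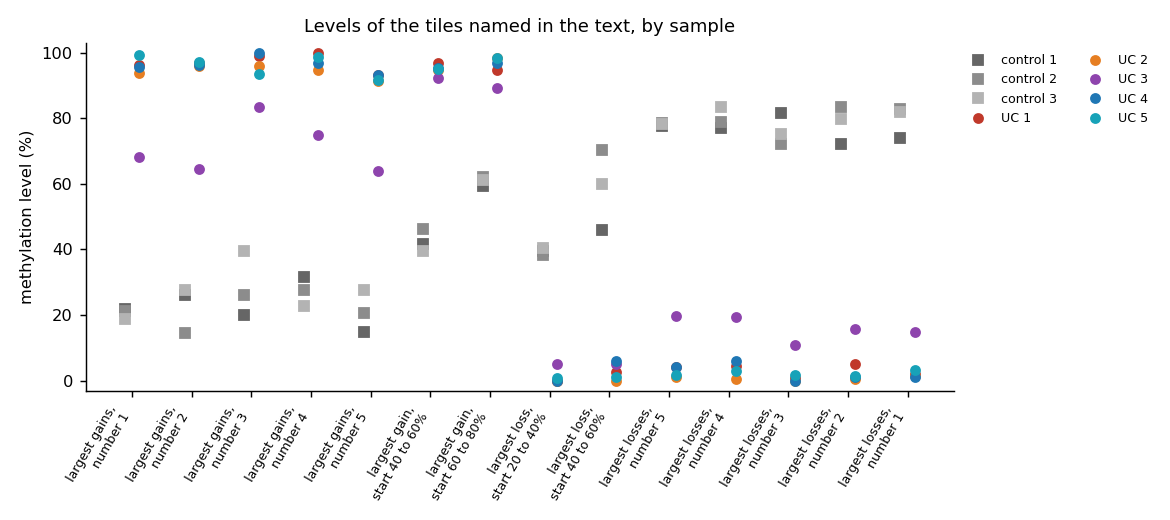
Methylation level in percent (y axis) of the 14 tiles of largest gain and loss (x axis) in each control (squares) and UC (circles). In the 5 largest gains UC 3 is the lowest UC, in the 5 largest losses it is the highest, and no UC overlaps a control in any of the 14.

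The limits of 20% and 80% cut through a continuous range. Just inside 20% were chr20:14457201-14457400, with 13.3%, 24.8% and 22.0% in the controls and 5.19% to 31.6% in the UCs, and chr6:12366001-12366200, with 13.8% to 25% and 4.07% to 15.1%. Just outside were chr10:11934401-11934600, with 17.7% to 22.0% and 25% to 43.5%, and chr4:64754401-64754600, with 13.4% to 28.8% and 45.6% to 73.0%. Just inside 80% were chr4:139301601-139301800, with 75.6% to 84.4% and 84.9% to 96.4%, and chr12:47732801-47733000, with 75.6% to 82.5% and 82.5% to 96.4%. Just outside were chr16:51401-51600, with 76.6% to 83.0% and 64.2% to 81.6%, and chr1:82074001-82074200, with 76.6% to 83.9% and 1.01% to 22.0%. Tiles beyond a limit could thus move as far as those within it.

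Genes could be placed beside some of the tiles through the study's list of 246 regions of hypermethylated genes, which was chosen on these samples and is not independent of them. Within 10000 bp of 126 of these regions lay 212 partly methylated open-sea tiles, of which 30 (14.2%) were called higher, 12 (5.66%) lower and 170 were not called. Over all partly methylated tiles the shares were 21.7% and 14.9%, and over all tiles 9.29% and 7.15%. Their median difference was 4.38 points, beside 4.56 points over all partly methylated tiles. The genes that follow were chosen after their values were seen.

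Near Stc2, which encodes the secreted glycoprotein stanniocalcin 2, a tile 7106 bp from the listed region had 25.9%, 27.9% and 25.3% in the controls and 88.5%, 91.0%, 70.7%, 97.2% and 92.8% in the UCs. Near Mdk, which encodes the heparin-binding growth factor midkine, a tile 237 bp away had 39.3%, 35.3% and 40.1% in the controls and 84.0%, 88.0%, 62.7%, 66.2% and 65.3% in the UCs. Both were called higher, and their groups did not overlap. Of the other tiles near Mdk, that 3696 bp away was called higher and that 4637 bp away was not called. Near Zic1, a zinc-finger transcription factor of development, a tile 4088 bp away had 27.4%, 22.6% and 35.2% in the controls and 88.2%, 83.8%, 32.6%, 87.1% and 90.4% in the UCs. It was called higher although UC 3 lay within the range of the controls. Another tile near Zic1, 4488 bp away, was called higher with UC 3 at 39.6%, above all controls.

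Losses stood near listed genes as well. Near Coro1a, which encodes the actin-binding protein coronin 1A of leukocytes, a tile 4483 bp away had 49.6%, 43.1% and 39.1% in the controls and 6.88%, 1.64%, 14.3%, 0.694% and 3.05% in the UCs, and was called lower. Its adjoining tile, 4283 bp away, was called lower as well. The tile nearest to the listed region, 3283 bp away, had 73.3% to 77.1% in the controls and 16.8% to 75.7% in the UCs and was not called. Near Mpped1, a gene of the metallophosphoesterase family, the 8 partly methylated tiles did not move together. One, 897 bp away, had 37.3% to 42.6% in the controls and 1.58% to 13.0% in the UCs and was called lower. Another, 2897 bp away, had 54.1%, 52.0% and 55.5% in the controls and 62.1%, 56.9%, 50%, 86.6% and 80.7% in the UCs. Its adjoining tile, 2697 bp away, had 67.1%, 65.4% and 66.3% in the controls and 33.4%, 29.1%, 55.7%, 59.7% and 51.9% in the UCs. UC 4 and UC 5 lay above UC 1 and UC 2 in both of these adjoining tiles, above all controls in the first and below all controls in the second, and neither tile was called. Near Cpxm1, a member of the carboxypeptidase family, a tile 8454 bp away had 56.8%, 63.8% and 53.4% in the controls and 44.3% to 64.2% in the UCs and was not called.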

How the data were processed

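RRBS libraries of 3 control bladders and 5 UCs, read as single ends, were used. Per the labels and the study's methods, the authors trimmed the reads, mapped them with RRBSMAP to the rn6 build, discarded alignments that were not unique and removed duplicates by barcode. The submitters' processing notes also name HOMER. The authors deposited, per CpG and over both strands, the counts of C calls and of all C and T calls. They also deposited an effective count, an expected count corrected for base variants by the opposite strand, and a ratio as a fraction, which was not used. No CpG had fewer than 3 reads. Such a minimum removes thinly covered CpGs, and RRBS reads only fragments of suitable length, so the tiles are a sample of the open sea.

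Calls were summed over 200-bp tiles. A tile was tested with 3 or more CpGs in every sample by a quasi-binomial model (UC against control, no covariates, F-test) with dispersions moderated by limma 3.58.1 in R 4.3.3 and Benjamini-Hochberg adjustment over 258144 tiles. The study used an analysis of variance on percentages, tried here as an alternative. The model was tried on simulated data with independent samples. The UCs formed close pairs, so this gives no error rate for the calls made here. Python 3.11.15, numpy 2.4.6, pandas 2.3.3, scipy 1.17.1 and matplotlib 3.10.9 were used. Several CpGs share a read, so the calls of a tile are not independent.

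Members and lists were chosen with earlier results of these data known. Named tiles had 50 or more calls in every sample and lay over 10000 bp apart: the 5 called tiles of largest gain and of largest loss, the largest of each in every 20-point starting band, and the 2 nearest inside and outside each limit. Further tiles near genes are said in the text to have been chosen after their values were seen. Gene positions are those of the study's list, since an rn6 annotation was not used here. Alternatives were limma on M values (offset 0.5), no moderation, an F-test on percentages, a replicate block, a difference over 20 points, each sample left out, merged UC pairs, CpGs of 10 or more reads, 50 or more calls, the effective count, the mean of CpG levels, distances of 5000 and 1000 bp to a CpG-dense tile, and a starting level from 1 control.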

Additional observations from a re-analysis of the deposited data

Results flagged for a closer look

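Of 25 measures examined over the 5 UCs, 13 had a sample set apart from the other 4 by Dixon's criterion. The sample was UC 3 in all 13. For independent samples, a rate of 5% would give about 1.25. The measures are not independent of each other, and 14 of them are tiles chosen for large differences between the groups. The 5% is the rate for unselected values, so it does not hold for these tiles. The SD of the levels over the tiles was 21.6 points for UC 3, with 28.2 to 29.2 for the rest. The share of tiles below 20% was 5.64% in UC 3 and 12.3% to 14.2% in the others, and the share of CpGs within the tiles at 20% to 80% was 58.7% against 27.9% to 36.2%.

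The other 10 were single tiles, out of 14 examined. Among the gains, UC 3 stood at 68.2% at chr7:23559401-23559600 (others 93.9% to 99.2%), at 64.4% at chr2:211681201-211681400 (95.9% to 97.2%), at 75% at chr4:168184601-168184800 (94.8% to 100%) and at 64.0% at chr19:19467401-19467600 (91.2% to 93.2%). Among the losses, it stood at 14.8% at chr7:126500601-126500800 (others 1.09% to 3.17%), at 15.8% at chr1:13641601-13641800 (0.658% to 5%) and at 10.8% at chr12:49491401-49491600 (0% to 1.83%). It stood at 19.4% at chr12:23580201-23580400 (0.667% to 5.98%), at 19.6% at chr8:84781401-84781600 (1.20% to 4.35%) and at 5% at chr1:79908001-79908200 (0% to 0.763%). In each of these tiles UC 3 lay on the side of the controls.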

How the results depend on the processing

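The number of called tiles depended on the test and on the samples, and the mean differences by starting level kept their direction in every alternative run. Beside 15814 tiles called higher and 10828 lower, leaving out 1 sample gave 7276 (without control 3) to 20889 (without UC 3) higher and 6093 (without control 3) to 13295 (without UC 3) lower. The merged UC pairs gave 7469 higher and 6224 lower, and no moderation gave 9882 higher. CpGs of 10 or more reads gave 8980 higher and 5799 lower among 34399 tiles, and 50 or more calls gave 9310 and 6082 among 36231, so fewer tiles were tested and the shares called were larger (26.1% and 25.7% higher). Controls and UCs share the replicate numbers 1 to 3 in the labels. Same-numbered samples had r of 0.04, −0.03 and 0.04 across tiles in their deviations, and control 1 had a higher r with UC 2 (0.06) than with UC 1. These values rest on 3 samples of each group and cannot decide whether the numbers pair the samples. The replicate block on these 6 samples, which leaves 2 residual degrees of freedom, called 0 higher and 0 lower, with 30739 tiles past 10 points at an unadjusted p under 0.05. The same 6 samples without the block gave 11495 higher and 8394 lower. The other alternatives gave 11021 to 16195 higher and 7435 to 11286 lower. Of 223 values of the 14 tiles of largest gain and loss under these settings, 209 kept their call and 14, all under the block, lost it, and 0 reversed. The depth limits single tiles: the median of the calls in the sample with the fewest was 49, so that small differences in 1 tile can be missed. Differences of up to 10 points were not called whatever their adjusted p.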

Other observations

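The partly methylated open-sea tiles were found on all the autosomes in similar shares, from 36.2% of the open-sea tiles of chromosome 15 to 41.8% of those of chromosome 10. Their mean difference was above 0 on each chromosome, lowest on chromosome 12 (0.27 points, 19.6% called higher and 17.1% lower) and highest on chromosome 18 (3.18 points, 24.0% and 13.3%). Lower calls were most frequent on chromosome 20 (17.5%) and higher calls on chromosome 11 (25.2%). No test was made of these differences between chromosomes.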
